A study of Mus musculus with 5 samples.

Results

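The conjugation enzymes described here are the UDP-glucuronosyltransferases (Ugt), the glutathione S-transferases (Gst, with the microsomal Mgst genes) and the sulfotransferases (Sult) of mouse kidney cortex. Members were the genes whose symbol begins with Ugt1a, Ugt2a, Ugt2b or Ugt3a, with Gst and a class letter a, k, m, o, p, t or z, with Mgst or with Sult, each followed by a number. This rule took 63 of the 24421 genes counted: 20 Ugt, 24 Gst and Mgst, and 19 Sult genes. It uses gene names alone, but these families were chosen with earlier results of these data known. RNAseq had been performed on cortical kidney tissue, flash frozen, from 3 *Fnip1-/-* mice (mice 8637, 9210 and 9121) and 2 *Fnip1+/+* wildtype mice (mice 9055 and 9056), all on C57BL6J, 1 library per mouse. The *Fnip1* null allele came from ENU chemical mutagenesis and is carried in every cell, so the kidney is not the only tissue without *Fnip1*. The labels give neither the sex nor the age of each mouse, and the study gives ages only as a range over its mice. The study's text also names the controls *Fnip1+/-*, while the labels give *Fnip1+/+*, and wildtype is used here after the labels.

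Conjugation makes drugs, hormones and products of oxidative damage more soluble so that transporters can carry them into urine or bile. Ugt enzymes add a sugar, mostly glucuronic acid taken from UDP-glucuronate, Gst enzymes add the tripeptide glutathione, and Sult enzymes add sulfate taken from the donor PAPS. In the kidney these enzymes sit mainly in the proximal tubule, the segment that takes up and secretes organic anions, and several differ between male and female rodents. *Fnip1* binds folliculin and AMPK, and the comparison asks how its loss changes gene expression in kidney tissue.

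Gene counts per mouse ran from 15799114 to 19132145, and at these depths 3 counts equal 0.158 to 0.186 normalized CPM (counts scaled by edgeR's TMM method to a common library size, the unit of all levels below). Values below that were not distinguished from no expression. Genes with under 10 counts in 3 or more mice were not tested, leaving 13874 genes and 37 of the 63 members. Genes were called at an FDR of 5%, adjusted over all genes tested, and a change of at least 2-fold in edgeR's two-sided quasi-likelihood test. Unless another test is named, adjusted p-values are from that test and fold changes are *Fnip1* null over wildtype on a log2 scale. An exact permutation test with 3 and 2 mice has 0.1 as its smallest p-value for 1 gene. Nothing in the labels says how the mice were related, so p-values measure the spread between these 5 libraries.

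*Fnip1* itself was at 21, 16.9 and 16 CPM in *Fnip1* null mice 8637, 9210 and 9121 and at 51.7 and 48.6 CPM in the wildtype mice (log2 fold change -1.48, adjusted p = 0.0313), so its transcript was lower but present. The proximal tubule phosphate transporter *Slc34a1* was between 3960 and 6341 CPM in every mouse, and the liver gene *Cyp2c29* was at most 0.124 CPM. Mouse 9121 stood apart from the other 4. Its level of *Xist*, the RNA of the inactive X chromosome, was 314 CPM against at most 1.41 CPM elsewhere, and *Ddx3y*, *Kdm5d* and *Uty* of the Y chromosome had no count in it. Mouse 9210 had the highest summed level of 5 adipocyte genes, 320 CPM, against 153 CPM in mouse 9121, 52.8 CPM in mouse 8637 and 32.9 to 35.1 CPM in wildtype mice. Results that rest on mouse 9121 are given with and without it. RNAseq of whole tissue averages over cell types, so fewer cells of a type and less RNA per cell cannot be told apart.

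Of the 37 tested members, the log2 fold change was above 0 in 22 and below 0 in 15, with a median of 0.14 beside 0.00 over all genes tested. Only *Ugt1a10* was called higher, 1 of 37 (2.7%) where 0.404% of all tested genes were called higher. No member was called lower, where 0.13% of all genes were. At an unadjusted p under 0.05 in the same quasi-likelihood test, 12 of the 37 members were higher and 5 lower, beside 13.9% and 11.2% of all genes. By edgeR's exact test 6 members were called higher (16.2%), namely *Ugt1a1*, *Ugt1a2*, *Ugt1a10*, *Ugt2b34*, *Gsta2* and *Gsta4*, beside 3.06% of all genes, and none lower beside 1.05%. DESeq2 called the same 6 genes higher, beside 2.64% of all genes, and none lower.

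The 3 *Fnip1* null mice were all above both wildtype mice in 17 tested members (45.9%), beside 22.9% of all genes, and all below in 11 (29.7%), beside 23% of all genes. The other 9 overlapped. Mouse 8637 lay nearest to the wildtype mean in 27 of the 37 members (73%) beside 57.3% of all genes, and mouse 9121 farthest in 26 (70.3%) beside 49.8%. Without mouse 8637, 11 of 39 tested members (28.2%) passed the FDR of 5% upward and 7 (17.9%) downward, beside 9.87% and 9.99% of all genes. Without mouse 9121, 2 members, *Ugt1a1* and *Ugt1a10*, were called higher, beside 0.637% of all genes. No member was called without mouse 9210, 9055 or 9056, and 0% of all genes were, so these 3 fits say nothing about the members in particular.

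**Figure D1:**
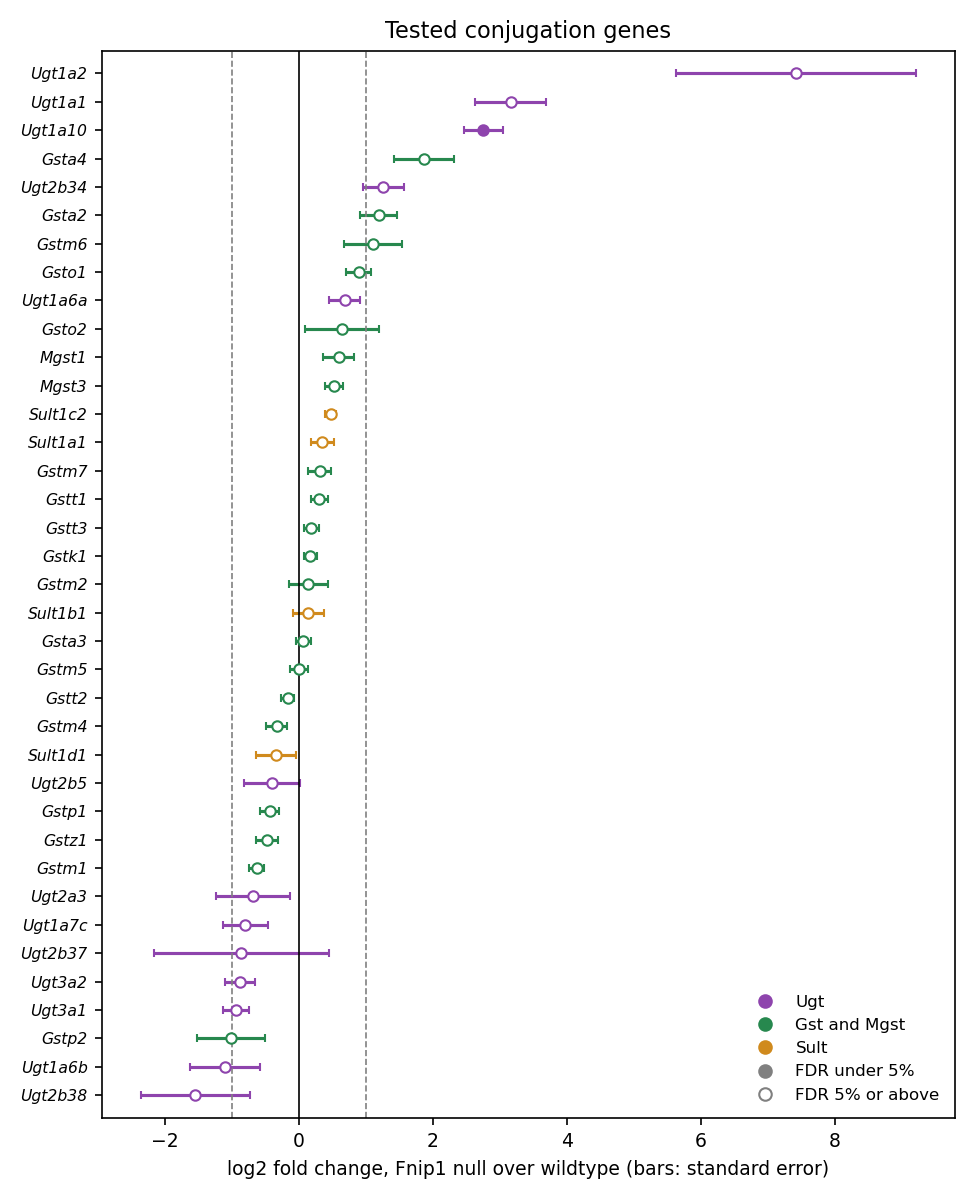
Log2 fold change (*Fnip1* null over wildtype, x axis) of each of the 37 tested members, ordered by size, with bars of 1 standard error from the quasi-likelihood fit. Colours mark the 3 families, the filled point marks the single member under an FDR of 5%, *Ugt1a10*, and dashed lines mark a 2-fold change. *Ugt1a2*, at 7.42, has the largest change and also the widest bar, and most Gst and Sult genes lie within 2-fold.

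The Ugt1a genes lie on chromosome 1 as a row of alternative starts. In the GENCODE annotation (GRCm38) each of the 8 has its own coding start, and all are spliced to a common exon. A read that falls in what they share names no single gene, and only reads on bases annotated to a single gene can be assigned. These bases are not the separate starts alone. *Ugt1a7c* is annotated as far as position 88220002, past the others, which end at 88219004 at the latest. *Ugt1a1* has only 385 exon bases that no other gene covers. These bases and ends are those of GENCODE, and the annotation with which the authors made the counts may differ. The coding starts of the 4 genes the results turn on (90 bases each, ATG in capitals) are shown because these 4 genes differ there. From 5′ to 3′ along the chromosome they lie at chr1:88055482-88055571 for *Ugt1a10*, chr1:88095121-88095210 for *Ugt1a7c*, chr1:88200637-88200726 for *Ugt1a2* and chr1:88212002-88212091 for *Ugt1a1*, all on the plus strand.
Ugt1a10: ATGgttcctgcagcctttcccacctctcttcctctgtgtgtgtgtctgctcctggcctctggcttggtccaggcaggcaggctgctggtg
Ugt1a7c: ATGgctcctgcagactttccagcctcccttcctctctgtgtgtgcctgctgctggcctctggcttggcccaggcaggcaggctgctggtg
Ugt1a2: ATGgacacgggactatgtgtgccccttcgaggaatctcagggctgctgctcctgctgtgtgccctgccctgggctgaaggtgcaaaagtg
Ugt1a1: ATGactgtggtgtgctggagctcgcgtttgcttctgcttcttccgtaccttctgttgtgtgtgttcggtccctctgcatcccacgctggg
The coding starts of *Ugt1a6a* and *Ugt1a6b* are identical to each other over these 90 bases, so those 2 genes could not be kept apart there and their values are uncertain. Between 52.1% and 80.2% of the 50-base words of each Ugt1a gene, the length of 1 read, also occur in another gene, and the counts therefore cover part of each transcript. Over the whole library, the tally of reads ambiguous between genes was 0.741% to 0.803% of all rows. The tally of alignments that were not unique was 28.3% to 31.4% of all rows, which need not equal a share of reads.

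Among the Ugt1a genes, the form most abundant in wildtype mice was below its wildtype level in every *Fnip1* null mouse, and 4 of the other tested forms, *Ugt1a10*, *Ugt1a2*, *Ugt1a1* and *Ugt1a6a*, each with a wildtype mean under 4 CPM, were above theirs. *Ugt1a10* was at 17.4, 31.1 and 27.7 CPM in *Fnip1* null mice 8637, 9210 and 9121 and at 3.79 and 3.77 CPM in wildtype mice. All 3 *Fnip1* null mice were thus several times above wildtype mice, which hardly differed (25.4 ± 7.14 against 3.78 ± 0.0104 CPM, mean ± SD, n = 3 and n = 2). This was a log2 fold change of 2.75 ± 0.289 (SE, adjusted p = 0.0323, and 7.75e-14 by edgeR's exact test), and it was 2.68 without mouse 9121 (adjusted p = 0.0195). The quasi-likelihood call was lost with an adjusted p of 0.121 without mouse 9210, 0.218 without mouse 9055 and 0.51 without mouse 9056, while the log2 fold change stayed between 2.57 and 2.96 whichever mouse was left out.

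*Ugt1a2* had the largest log2 fold change of any tested member. Its level was 12.1, 110 and 433 CPM in *Fnip1* null mice 8637, 9210 and 9121 and 1.12 and 1.03 CPM in wildtype mice. The groups did not overlap, but the *Fnip1* null mice themselves ran from 206 counts in mouse 8637 to 8214 counts in mouse 9121, against 18 counts in each wildtype mouse. Its log2 fold change of 7.42 ± 1.79 (SE) did not pass the quasi-likelihood test (adjusted p = 0.0944), and passed the exact test (adjusted p = 0.000221). Without mouse 9121 it was 5.82 (adjusted p = 0.0623, and 4.45e-07 by the exact test). *Ugt1a1*, the enzyme that glucuronidates bilirubin, was at 7.42, 5.29 and 13.9 CPM in the *Fnip1* null mice and at 1.24 and 0.743 CPM in wildtype mice. Its lowest *Fnip1* null mouse was several times above its highest wildtype mouse (log2 fold change 3.16 ± 0.533, adjusted p = 0.0622, and 2.96e-06 by the exact test), and without mouse 9121 it passed the quasi-likelihood test (2.68, adjusted p = 0.0284).

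*Ugt1a7c*, the most abundant Ugt1a gene of wildtype cortex, was at 391, 246 and 159 CPM in the *Fnip1* null mice and at 438 and 486 CPM in wildtype mice. Mouse 8637 was close to wildtype and mouse 9121 lowest, and the log2 fold change of -0.80 ± 0.34 did not pass the test (adjusted p = 0.208). *Ugt1a7c* held 97.7% of the counts assigned to Ugt1a genes in both wildtype mice, and 90.1%, 61.6% and 24.9% in *Fnip1* null mice 8637, 9210 and 9121. *Ugt1a2* held 0.249% and 0.207% of them in wildtype mice and 2.8%, 27.5% and 67.6% in the *Fnip1* null mice. In mouse 9121 *Ugt1a2* had thus become the largest of the 8, while in mice 8637 and 9210 *Ugt1a7c* still was. The summed Ugt1a level was 434, 399 and 641 CPM in the *Fnip1* null mice and 448 and 498 CPM in wildtype mice, and the groups overlapped. These shares count only assigned reads and are not corrected for the number of bases that belong to each gene alone.

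**Figure D2:**
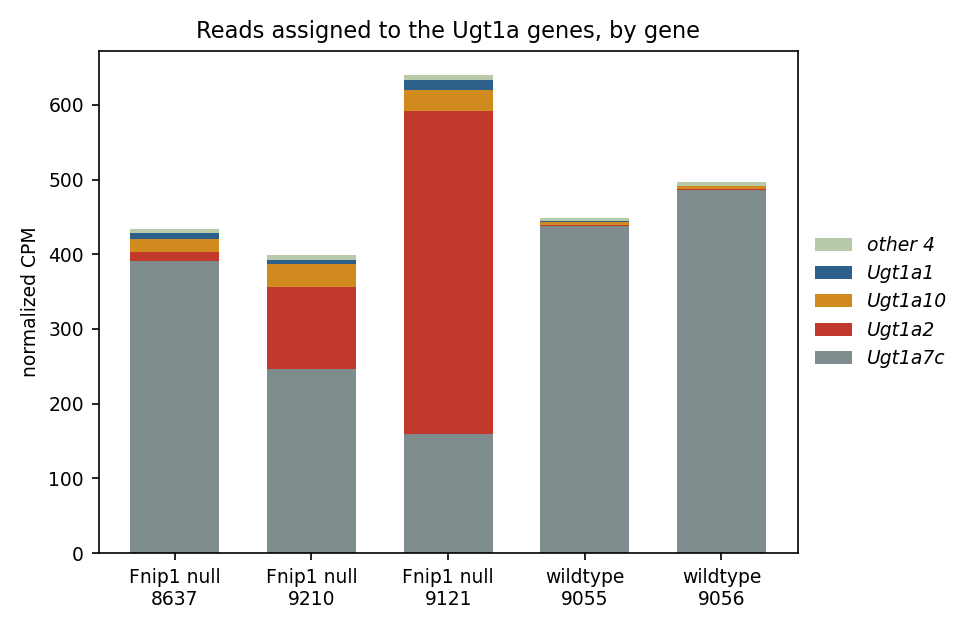
Normalized CPM (y axis, from 0) of the reads assigned to each Ugt1a gene, stacked for each of the 5 mice. *Ugt1a7c* fills nearly the whole bar in both wildtype mice, and *Ugt1a2* grows from 12.1 CPM in mouse 8637 to 110 CPM in mouse 9210 and 433 CPM in mouse 9121.

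The other Ugt1a genes were rare. *Ugt1a6a*, which with its neighbour *Ugt1a6b* conjugates small planar phenols, was at 5.01 to 6.07 CPM in *Fnip1* null and 3.04 to 4.06 CPM in wildtype mice (log2 fold change 0.68, adjusted p = 0.142). *Ugt1a6b* was at 0.824, 0.832 and 0.264 CPM against 1.06 and 1.66 CPM (log2 fold change -1.10, adjusted p = 0.247). In both genes the groups did not overlap, and neither difference passed the test. *Ugt1a9* had between 1 and 8 counts and *Ugt1a5* at most 1 count in a mouse, and neither was tested.

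The Ugt2 enzymes conjugate steroids, bile acids and many drugs, and their genes lie together on chromosome 5. Their main kidney form was lower in the *Fnip1* null mice by an amount that differed widely between mice. *Ugt2b38* was at 698, 343 and 60.8 CPM in *Fnip1* null mice 8637, 9210 and 9121 and at 1080 and 1077 CPM in wildtype mice. All 3 *Fnip1* null mice were below wildtype mice, which lay within a few CPM of each other, but mouse 9121 was far below the other 2. *Ugt2b38* had a log2 fold change of -1.55 ± 0.811 (SE, adjusted p = 0.282, and 0.206 by the exact test). Without mouse 9121 it was -1.05, which did not pass the quasi-likelihood test (adjusted p = 0.132) and passed the exact test (adjusted p = 0.018). In that exact test *Ugt2b38* was the single member called lower, beside 1.09% of all genes, and 5 of the 6 members above were called higher, beside 2.41%.

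*Ugt2b37* was at 175, 42.1 and 1.21 CPM in the *Fnip1* null mice and at 132 CPM in both wildtype mice. Mouse 8637 was above wildtype and the other *Fnip1* null mice below, so the groups overlapped (log2 fold change -0.86 ± 1.3, adjusted p = 0.709). Of *Ugt2b38* and *Ugt2b37*, 37.4% and 18.3% of the 50-base words occur in another gene, most often *Ugt2b5*, so some of their reads may have been lost or moved between them. *Ugt2b34*, which shares only 1.44% of its words, went the other way. It was at 52.5, 81.0 and 108 CPM in the *Fnip1* null mice and at 37.4 and 29.8 CPM in wildtype mice, with mouse 9121 highest and no overlap. *Ugt2b34* had a log2 fold change of 1.26 ± 0.302 (SE, adjusted p = 0.0933, and 0.00321 by the exact test), and 0.99 without mouse 9121 (adjusted p = 0.0778, and 0.00176 by the exact test).

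The summed Ugt2b level was 928, 468 and 172 CPM in *Fnip1* null mice 8637, 9210 and 9121 and 1251 and 1242 CPM in wildtype mice. Every *Fnip1* null mouse was below wildtype, and *Ugt2b38* made up most of the sum except in mouse 9121, where *Ugt2b34* was the larger. *Ugt2b5* was at 1 to 2.36 CPM against 1.80 to 2.63 CPM and overlapped between genotypes. *Ugt2a3* was at 0.824, 1.37 and 0.317 CPM against 1.43 and 1.26 CPM, which also overlapped. *Ugt2b35* and *Ugt2a1* had at most 6 counts in a mouse, and *Ugt2a2*, *Ugt2b1* and *Ugt2b36* had none in any.

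The Ugt3 enzymes use UDP sugars other than UDP-glucuronate, and both of their genes, neighbours on chromosome 15, were lower in every *Fnip1* null mouse. *Ugt3a2* was at 1450, 1034 and 878 CPM in *Fnip1* null mice 8637, 9210 and 9121 and at 1956 and 2159 CPM in wildtype mice. *Ugt3a1* was at 375, 279 and 241 CPM in the *Fnip1* null mice and at 568 and 576 CPM in wildtype mice. In both genes the highest *Fnip1* null mouse was below the lowest wildtype mouse. The log2 fold change was -0.88 ± 0.229 for *Ugt3a2* (adjusted p = 0.105, and 0.014 by the exact test) and -0.94 ± 0.193 for *Ugt3a1* (adjusted p = 0.075, and 0.00192 by the exact test). Without mouse 9121 they were -0.73 and -0.81, with adjusted p-values of 0.136 and 0.0761 (0.0166 and 0.00177 by the exact test). Both changes were under 2-fold. Without mouse 8637 both passed the quasi-likelihood test and the 2-fold threshold, at -1.10 and -1.14 (adjusted p = 0.00932 and 0.00604).

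**Figure D3:**
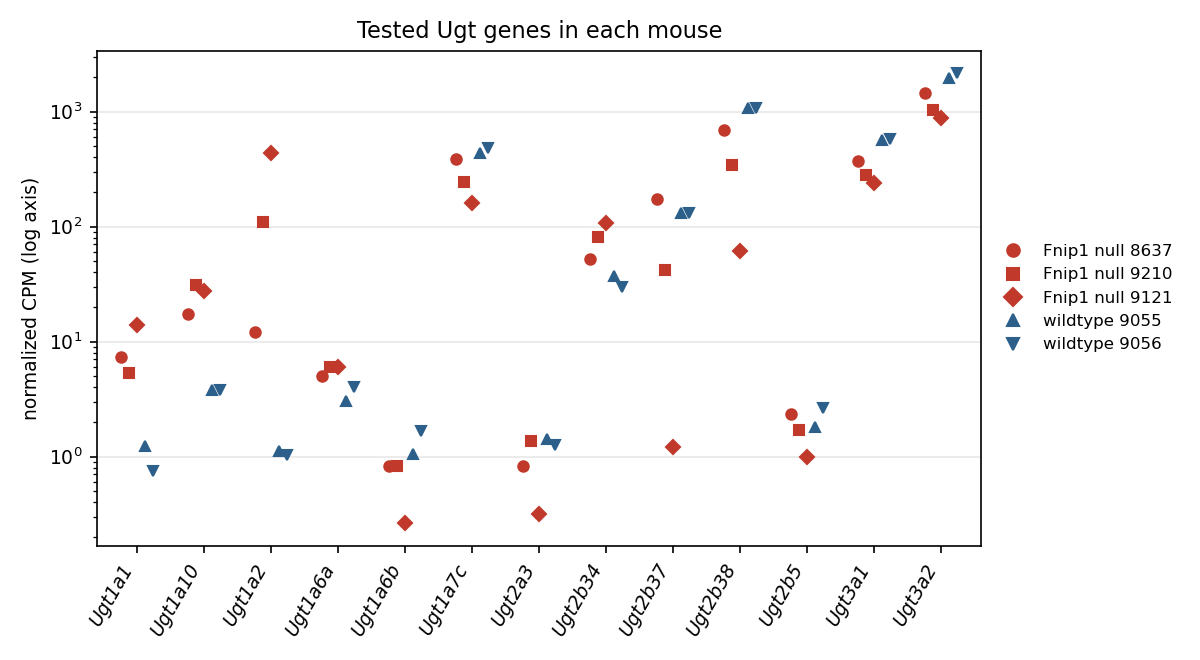
Normalized CPM (y axis, log scale) of the 13 tested Ugt genes in each mouse, with *Fnip1* null mice in red and wildtype mice in blue and 1 symbol per mouse. *Ugt1a1*, *Ugt1a2*, *Ugt1a10* and *Ugt2b34* have all red points above the blue ones, *Ugt1a7c*, *Ugt2b38*, *Ugt3a1* and *Ugt3a2* all below, and the red points of *Ugt1a2*, *Ugt2b37* and *Ugt2b38* spread most.

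Among the glutathione S-transferases, the log2 fold change was above 0 in 14 of the 20 tested genes and below 0 in 6 (median 0.18, from -1.01 to 1.87), and none was called by the quasi-likelihood test. At an unadjusted p under 0.05 in that test, 6 of 20 were higher and 3 lower, beside 13.9% and 11.2% of all genes. The exact test and DESeq2 each called 2 of the 20 higher, beside 3.06% and 2.64% of all genes. The alpha class gave the largest change. *Gsta4*, whose enzyme clears the lipid peroxidation product 4-hydroxynonenal, was at 49.1, 87.6 and 150 CPM in *Fnip1* null mice 8637, 9210 and 9121 and at 26.4 and 25.9 CPM in wildtype mice. All 3 *Fnip1* null mice were well above wildtype, with mouse 9121 highest. This gave a log2 fold change of 1.87 ± 0.449 (SE, adjusted p = 0.0937, and 0.00192 by the exact test), and 1.39 without mouse 9121 (adjusted p = 0.0562, and 4.12e-05 by the exact test). None of its 50-base words occurs in another gene.

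*Gsta2* was at 97.5, 157 and 175 CPM in the *Fnip1* null mice and at 52.5 and 73.0 CPM in wildtype mice, again with no overlap. The log2 fold change was 1.19 ± 0.276 (adjusted p = 0.0894, and 0.00269 by the exact test), and 1.02 without mouse 9121 (adjusted p = 0.091, and 0.00367 by the exact test). Of its words 49.8% occur in another gene, most often *Gsta1*, which had at most 6 counts in a mouse, so reads of this pair could not be fully separated. *Gsta3*, on another chromosome, was at 105 to 115 CPM in *Fnip1* null and 94.1 to 115 CPM in wildtype mice and did not pass the test (log2 fold change 0.06 ± 0.113, adjusted p = 0.761).

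The mu class lies in a row on chromosome 3, and its genes differed in direction. *Gstm1*, its most abundant gene per length of exon, was at 296, 268 and 316 CPM in *Fnip1* null mice 8637, 9210 and 9121 and at 448 and 457 CPM in wildtype mice. Every *Fnip1* null mouse was below wildtype, and mouse 9121 was the nearest to it (log2 fold change -0.63 ± 0.114, adjusted p = 0.0661, and 0.00568 by the exact test). *Gstm6* was at 1.77, 2.91 and 2.48 CPM against 1.55 and 0.686 CPM, a log2 fold change of 1.10 at low counts that did not pass the test (adjusted p = 0.188). The remaining tested mu genes, *Gstm2*, *Gstm4*, *Gstm5* and *Gstm7*, had log2 fold changes of 0.14, -0.33, 0.00 and 0.31 with adjusted p-values of 0.243 to 0.987. *Gstm3* had at most 1 count in a mouse.

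*Gsto1*, an omega class enzyme that reduces dehydroascorbate and methylated arsenic, was at 58.3, 81.6 and 90.1 CPM in the *Fnip1* null mice and at 39.9 and 42.6 CPM in wildtype mice. All 3 were above wildtype (log2 fold change 0.89 ± 0.19, adjusted p = 0.0782, and 0.00215 by the exact test), a change under 2-fold. *Gsto2* was at 0.589 to 1.9 CPM and overlapped between genotypes. The membrane-bound *Mgst3* was at 98.9, 119 and 132 CPM against 78.2 and 84.0 CPM (log2 fold change 0.52 ± 0.137, adjusted p = 0.104, and 0.0391 by the exact test). Without mouse 9121 its log2 fold change was 0.42, and it passed neither test (adjusted p = 0.129, and 0.0712 by the exact test). *Mgst1* was at 66.4, 98.1 and 114 CPM against 56.9 and 66.2 CPM, where mouse 8637 was level with a wildtype mouse and the others were higher (adjusted p = 0.178). *Mgst2* had at most 5 counts in a mouse.

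*Gstz1*, the maleylacetoacetate isomerase of tyrosine breakdown, was at 315, 254 and 238 CPM in the *Fnip1* null mice and at 335 and 417 CPM in wildtype mice (log2 fold change -0.48 ± 0.164, adjusted p = 0.148). The pi class genes were lower in every *Fnip1* null mouse too, *Gstp1* at 55.8, 48.3 and 40.7 CPM against 60.9 and 69.8 CPM and *Gstp2* at 2.24, 1.01 and 0.633 CPM against 2.73 and 2.46 CPM. None of these 3 passed the test (adjusted p = 0.146 for *Gstp1* and 0.268 for *Gstp2*), and the 2 pi genes share 33.7% and 54.3% of their words, most often with each other. Without mouse 8637, *Gstz1*, *Gstp1* and *Gstp2* passed the FDR of 5%, with adjusted p-values of 0.0272, 0.0314 and 0.0307. *Gstt1* was at 122, 146 and 154 CPM in the *Fnip1* null mice and 107 and 122 CPM in wildtype mice, and *Gstk1* at 64.2, 64.6 and 72 CPM against 55.9 and 62.8 CPM. The theta genes *Gstt1*, *Gstt2* and *Gstt3* and the mitochondrial and peroxisomal *Gstk1* had log2 fold changes between -0.17 and 0.30 (adjusted p = 0.21 to 0.367). *Gstt4* had at most 1 count in a mouse.

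The summed Gst and Mgst level was 1829, 1944 and 2117 CPM in *Fnip1* null mice 8637, 9210 and 9121 and 1849 and 2079 CPM in wildtype mice. The groups overlapped and their means, 1963 and 1964 CPM, were nearly the same, while the mean alpha, omega and microsomal sums were above and the mean mu, pi and zeta sums below those of wildtype mice. The summed alpha class was 252, 352 and 440 CPM against 173 and 214 CPM, and the summed mu class 490, 489 and 521 CPM against 643 and 668 CPM.

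Of the 19 sulfotransferase genes only 4, all of class 1, had enough counts to be tested, and none was called. At an unadjusted p under 0.05 in the quasi-likelihood test 1 was higher and 0 lower, beside 13.9% and 11.2% of all genes. The exact test and DESeq2 called 0 as well, where they called 3.06% and 2.64% of all genes higher. *Sult1d1*, which sulfates catecholamines and was the most abundant, was at 805, 651 and 390 CPM in *Fnip1* null mice 8637, 9210 and 9121 and at 702 and 861 CPM in wildtype mice. Mouse 8637 lay between the wildtype mice and the others below them (log2 fold change -0.34 ± 0.296, adjusted p = 0.497, and -0.10 without mouse 9121). *Sult1c2* was at 107, 110 and 102 CPM in the *Fnip1* null mice and at 74.7 and 78.8 CPM in wildtype mice. Here both groups were tight and apart, and the change was small (log2 fold change 0.47 ± 0.0867, adjusted p = 0.067, and 0.0155 by the exact test).

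*Sult1a1*, the main phenol sulfotransferase, was at 14.4, 19.7 and 14.4 CPM against 13.0 and 12.5 CPM (log2 fold change 0.35, adjusted p = 0.275). *Sult1b1* was at 4.77, 4.46 and 3.64 CPM against 4.35 and 3.43 CPM, with the groups overlapping (0.14, adjusted p = 0.738, and -0.02 without mouse 9056). The cholesterol sulfotransferase *Sult2b1* was at 0.353, 0.416 and 0.950 CPM against 1.12 and 0.514 CPM and was not tested. *Sult5a1* was at 0.471, 0.891 and 0.739 CPM against 0.497 and 0.457 CPM, *Sult6b1* at 0.294, 0.0594 and 0.211 CPM against 0.186 and 0.171 CPM, and *Sult4a1* at 0.118, 0.0594 and 0.211 CPM against 0.0621 and 0 CPM. All 3 had too few counts to be tested. The estrogen sulfotransferase *Sult1e1* had a single count in 1 wildtype mouse and the hydroxysteroid sulfotransferase *Sult2a3* at most 2 counts in a mouse. *Sult1c1*, *Sult3a1* and the other 7 Sult2a genes (*Sult2a1*, *Sult2a2* and *Sult2a4* to *Sult2a8*) had no count in any mouse, which allows at most 0.158 to 0.186 CPM.

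**Figure D4:**
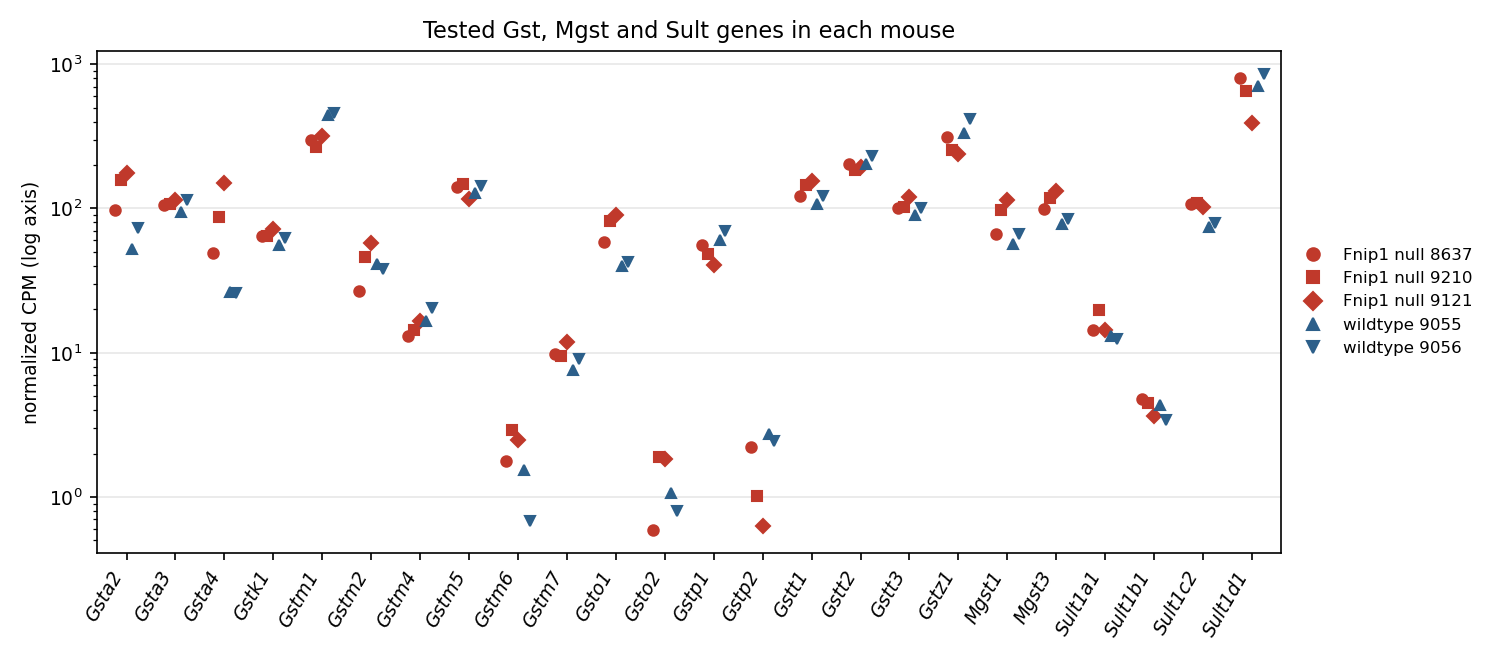
Normalized CPM (y axis, log scale) of the 20 tested Gst and Mgst and the 4 tested Sult genes in each mouse, with *Fnip1* null mice in red and wildtype mice in blue. *Gsta2*, *Gsta4*, *Gsto1*, *Mgst3* and *Sult1c2* have all red points above the blue ones and *Gstm1*, *Gstp1* and *Gstz1* all below, while *Gsta3*, *Gstm5*, *Sult1b1* and *Sult1d1* overlap.

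Across the 3 families, levels per length could be compared between genes as CPM per kb of exon that no other annotated gene covers. In wildtype mice the highest means were 663 CPM per kb for *Ugt3a2*, 570 for *Ugt2b38*, 318 for *Sult1d1*, 307 for *Gstm1*, 241 for *Ugt1a7c* and 214 for *Ugt3a1*. In *Fnip1* null mice they were 361 for *Ugt3a2*, 250 for *Sult1d1*, 206 for *Ugt1a2*, 199 for *Gstm1* and 194 for *Ugt2b38*. *Ugt3a2* led in both genotypes, and *Ugt1a2*, at 1.19 CPM per kb in wildtype mice, came among the first only in *Fnip1* null mice, chiefly through mouse 9121. These are means over 2 and 3 mice with no test of the order, and genes that lose reads to a near copy are set too low. The exon lengths are from GENCODE, and the annotation behind the counts may differ. Summed over all 63 members the level was 5950, 4913 and 4561 CPM in *Fnip1* null mice 8637, 9210 and 9121 and 6871 and 7512 CPM in wildtype mice, so every *Fnip1* null mouse was below wildtype, and the Ugt genes made up most of the difference (3188, 2181 and 1932 CPM against 4226 and 4476 CPM).

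The order of the *Fnip1* null mice was shared by genes that differ between male and female mouse kidney. The lists of these genes were chosen with earlier results of these data known. Of 8 genes known to be higher in male kidney, all 8 were below wildtype in every *Fnip1* null mouse, beside 23% of all genes. Their summed level was 18575, 7053 and 5165 CPM in mice 8637, 9210 and 9121 against 35282 and 39310 CPM in wildtype mice. None passed the quasi-likelihood test at an FDR of 5%. At an unadjusted p under 0.05 in that test 2 were lower, and 2 passed by the exact test, beside 11.2% and 3.63% of all genes. Their largest member was *Kap*, a proximal tubule gene driven by androgen. The 3 genes known to be higher in female kidney, *Cyp4a14*, *Slc7a12* and *Prlr*, were above wildtype in every *Fnip1* null mouse, beside 22.9% of all genes. Their summed level was 342, 638 and 875 CPM against 58.0 and 75.3 CPM. Of these 3, *Cyp4a14* passed the quasi-likelihood test at an FDR of 5%, where 77 of the 13874 genes tested passed upward. The 16 proximal tubule markers, of which *Kap* is also one, had 3 positive and 13 negative log2 fold changes. None passed the quasi-likelihood test at an FDR of 5%. At an unadjusted p under 0.05 in that test 2 were higher and 4 lower, beside 13.9% and 11.2% of all genes. By the exact test at an FDR of 5%, 1 was higher and 2 lower, beside 6.18% and 3.63%. The genotypes did not overlap in 3 markers that were higher and 7 that were lower. Summed, the 16 markers were at 38051, 23303 and 19835 CPM against 52225 and 58312 CPM. *Kap* held a large share of these sums, and the other 15 markers summed to 24473, 17879 and 14998 CPM against 25490 and 29072 CPM, with mouse 8637 close to the lower wildtype mouse. Among the *Fnip1* null mice, *Ugt2b38*, *Ugt2b37*, *Ugt1a7c*, *Ugt3a1* and *Ugt3a2* were likewise highest in mouse 8637 and lowest in mouse 9121, and *Ugt1a2*, *Ugt2b34*, *Gsta4* and *Gsta2* were lowest in mouse 8637 and highest in mouse 9121. Some other members had another order, among them *Ugt1a1*, lowest in mouse 9210, and *Gstm1* and *Sult1c2*, nearest to wildtype in mouse 9121.

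**Figure D5:**
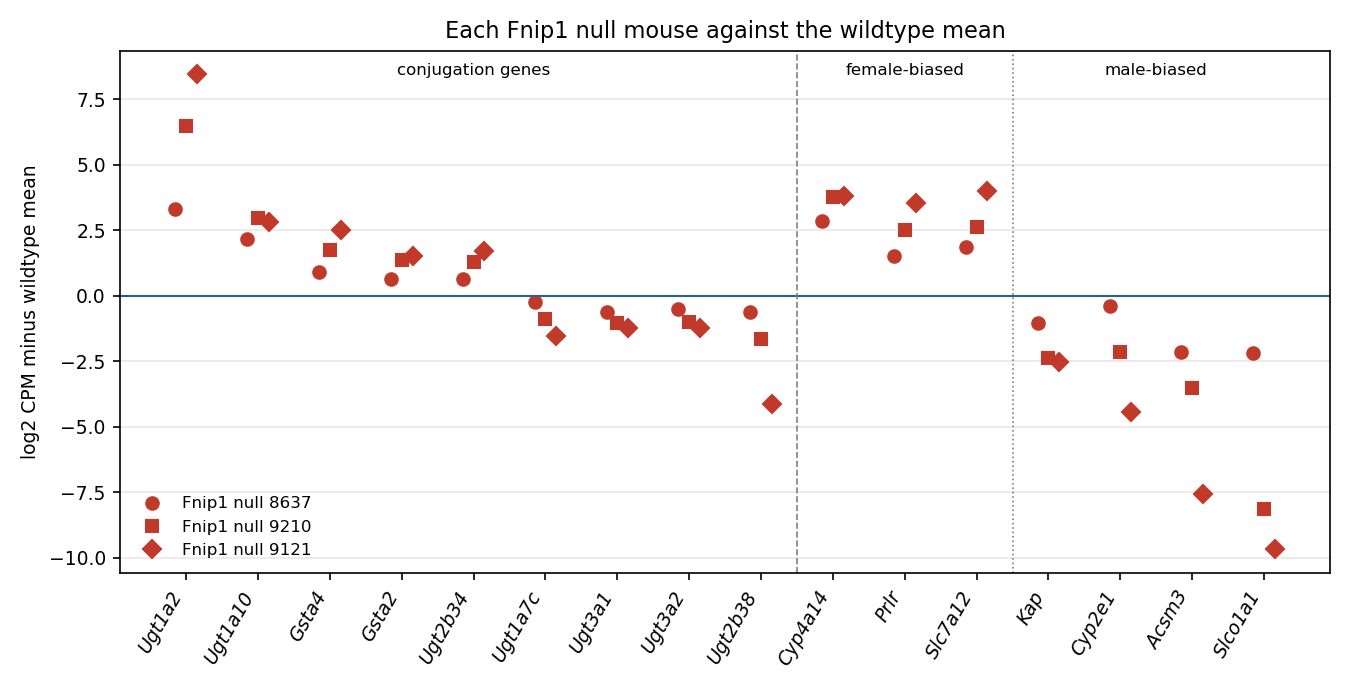
Log2 CPM of each *Fnip1* null mouse minus the wildtype mean (y axis) for 9 conjugation genes, 3 genes higher in female kidney and 4 genes higher in male kidney, with 1 symbol per mouse. The genes drawn were chosen after their values were seen. Mouse 8637 lies nearest to the wildtype mean at 0 in each gene drawn and mouse 9121 farthest in all but *Ugt1a10*, where mouse 9210 is slightly farther. *Ugt1a1*, *Gstm1* and *Sult1c2* are among the members not drawn in which mouse 8637 was not the nearest.

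What part these markers, and the other cell types of the cortex, have in the values of the conjugation genes was not tested. Mouse 9121, without counts of the Y chromosome genes above, lay farthest from the wildtype mean in 26 of the 37 tested members, mouse 9210 in 8 and mouse 8637 in 3. *Ddx3y* was at 42.8 CPM in mouse 9210, beside 43.8 and 48.3 CPM in wildtype mice. What part the difference in sex chromosome genes has in these values was not tested either. The marker lists that follow have this background among the 13874 genes tested. The main test passed 77 genes upward and 25 downward at the 5% FDR. Its unadjusted p was under 0.05 for 13.9% of genes upward and 11.2% downward. With the exact test 6.18% passed upward and 3.63% downward at the same FDR. The 5 podocyte genes summed to 658 to 773 CPM in *Fnip1* null and 367 to 370 CPM in wildtype mice, and 3 of them passed at an FDR of 5% (5 at an unadjusted p under 0.05 and 5 by the exact test, all higher). The 10 leukocyte genes summed to 69.6 to 119 CPM against 81.5 to 90.8 CPM, but 7 of the 8 tested had a positive log2 fold change (median 1.52). In every *Fnip1* null mouse 6 of the 8 lay above both wildtype mice and 1 below, beside 22.9% and 23% of all genes. Of these 8, 1 passed, and 6 were higher and 1 lower at an unadjusted p under 0.05 and 6 higher by the exact test. The 11 genes of the thick limb, distal tubule and collecting duct summed to 8656 to 12409 CPM against 8089 to 8943 CPM with none passing (6 at an unadjusted p under 0.05 and 4 by the exact test), and the 6 fibroblast and smooth muscle genes to 277 to 527 CPM against 148 to 255 CPM with none passing (6 and 3). The 6 endothelial genes overlapped, at 351 to 504 CPM against 217 to 358 CPM with none passing (3 and 1), as did the 4 liver genes, at 30.3 to 53.8 CPM against 50.7 to 54.7 CPM with none passing (0 and 0).

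The genes that supply the donors and handle the conjugates were taken from lists, and none passed the quasi-likelihood test at an FDR of 5%. All 6 genes of the list for UDP-glucuronate supply and related steps had a negative log2 fold change (median -0.47), with *Uxs1* near no change at -0.05 (adjusted p = 0.81). Of the 6, 4 had an unadjusted p under 0.05 and 2 passed the exact test at an FDR of 5%. Over all genes tested, 13.9% were higher and 11.2% lower at an unadjusted p under 0.05, and 6.18% higher and 3.63% lower by the exact test at that FDR. This is the background for this list and each list below. One of these, *Ugdh*, which makes UDP-glucuronate, was at 130, 110 and 113 CPM in the *Fnip1* null mice and at 160 and 173 CPM in wildtype mice (log2 fold change -0.50, adjusted p = 0.0786, and 0.02 by the exact test). The other was *Gusb*, the lysosomal enzyme that removes glucuronate (-0.48, adjusted p = 0.0771, and 0.0193 by the exact test). The gene of this list with the highest level, *Ugp2*, which makes UDP-glucose, had a log2 fold change of -0.26 (adjusted p = 0.251).

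Of the 18 tested genes of glutathione supply and mercapturate formation, 14 had a negative log2 fold change (median -0.64). At an unadjusted p under 0.05, 12 of the 18 were lower and 2 higher, the latter below the share over all genes, and by the exact test 7 passed downward and 1, *Ggt5*, upward. The rate-limiting subunits *Gclc* and *Gclm* had log2 fold changes of -0.65 and -0.92 (adjusted p = 0.0688 and 0.0604, and 0.0057 and 0.000186 by the exact test). *Acy3*, which deacetylates mercapturates and had the highest level of the list, was at 1318, 695 and 600 CPM against 2573 and 3117 CPM (-1.71, adjusted p = 0.0746, and 0.000214 by the exact test). *Ggt1*, the brush border enzyme that splits glutathione, was at 961, 631 and 616 CPM against 1378 and 1587 CPM (-1.01, adjusted p = 0.0837, and 0.00299 by the exact test).

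The 10 tested genes of PAPS and sulfate supply had a median log2 fold change of -0.20, with 1 lower at an unadjusted p under 0.05 and 0 passing by the exact test, and the gene with the most counts among them, *Papss2*, which makes PAPS, was at 0.15 (adjusted p = 0.493). Another list joined enzymes of other conjugation reactions with epoxide hydrolases. Of its 11 tested genes, 8 had a negative log2 fold change (median -0.37), and 4 lower and 1 higher had an unadjusted p under 0.05. By the exact test 3 were lower and 1, the epoxide hydrolase *Ephx1*, higher. The gene of that list with the most counts, the acyltransferase *Keg1*, had a log2 fold change of -1.10 (adjusted p = 0.0913, and 0.00342 by the exact test). Of the 9 efflux pump genes 6 had a positive log2 fold change (median 0.64), and 5 higher and 3 lower had an unadjusted p under 0.05. By the exact test 3 passed upward, *Abcc1*, *Abcc4* and *Abcb1b*. The summed level of the 9 went the other way, at 1049, 877 and 893 CPM in *Fnip1* null mice 8637, 9210 and 9121 against 1082 and 1153 CPM. In every *Fnip1* null mouse 6 of the 9 lay above both wildtype mice and 3 below, beside 22.9% and 23% of all genes. *Abcc4*, which exports conjugates into urine, was at 87.8, 89.2 and 136 CPM against 44.5 and 46.3 CPM (1.20, adjusted p = 0.0646, and 7.09e-05 by the exact test). *Abcg2*, the urate and sulfate conjugate pump with the most counts in the list, had a log2 fold change of -0.42 (adjusted p = 0.187).

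Of 9 tested regulators of these genes 0 were called and 0 had an unadjusted p under 0.05 in the quasi-likelihood test, and 0 passed the FDR of 5% by the exact test. Their log2 fold change was above 0 in 4 and below 0 in 5 (median -0.08), and the oxidative stress factor *Nfe2l2* (NRF2) was at 125, 124 and 138 CPM against 118 and 105 CPM (0.22, adjusted p = 0.233). *Hnf4a*, the regulator with the most counts, had a log2 fold change of -0.33 (adjusted p = 0.382). Of the 6 tested NRF2 reference targets 5 had a negative log2 fold change (median -0.44), with 4 lower and 1 higher at an unadjusted p under 0.05 and 2, *Gclc* and *Gclm*, lower by the exact test. *Nqo1* was at 72.1, 73.2 and 72.2 CPM against 84.1 and 101 CPM (-0.35, adjusted p = 0.117).

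RefSeq promoters (250 bases before to 50 after the gene start, GRCm38.p6) were found for 55 of the 63 members. The antioxidant response core TGACNNNGC, searched on both strands, occurred in 4 of their 67 promoters, those of *Gsta3*, *Gstm5*, *Gstm7* and *Mgst1*, and in 12.4% of all 32851 promoters. Of the 10 tested members with a log2 fold change of 1 or more in either direction, 8 had a promoter in the table and none of these held it, which is a description of these letters in this window and not of any factor's binding.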

How the data were processed

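The authors purified RNA from frozen kidney tissue, prepared TruSeq libraries, sequenced paired 50-base reads, filtered reads of low quality, mapped them on mm10 (TopHat2 2.1.0) and tallied them by gene symbol (HTSeq 0.6.1). The deposited values are these counts, 1 table per mouse, without normalization. The number of mouse 9210 is from its label, and the name of its table has 2 of these digits swapped. The study's text counts 3 wildtype mice, while 2 were analysed here. Reads with several alignments or several genes are not counted by HTSeq, so members with near copies or shared exons are counted too low. The strand setting is not given in the sources used here. Rows that name no gene stayed out of library sizes and tests. Of the sum of all rows, no feature held 9.91% to 10.8%, ambiguous 0.741% to 0.803% and alignment not unique 28.3% to 31.4%.

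The count analysis used edgeR 4.0.16 and limma 3.58.1 under R 4.3.3: TMM factors (0.914 to 1.09), the quasi-likelihood test over 13874 genes with Benjamini-Hochberg adjustment, and edgeR's exact test and DESeq2 1.42.0 as alternatives, with other normalizations, filters and thresholds and each mouse left out. Standard errors follow from each fold change and the statistic of its test. The tests were tested on simulated data. Libraries of 1 genotype correlated at 0.969 to 0.99 (log2 CPM). Coordinates, exon lengths and shared 50-base words are from GENCODE M21 on GRCm38, matched by symbol, and promoters from RefSeq.

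The members, the pathway and marker lists and the named genes were chosen with earlier results of these data known. Values in every mouse are given for members under an FDR of 5%, the highest per kb of each subfamily, those changed 2-fold, and the 3 largest changes in each direction of each family. In the pathway lists the highest gene and genes under an FDR of 5% are named by rule, and Ugdh, Gusb, Gclc, Gclm, Ggt1, Ggt5, Ephx1, Abcc1, Abcc4, Abcb1b, Nfe2l2 and Nqo1 were added after their values were seen, as were Ugt2b37, Ugt1a6a and Mgst1 in full. Intervals were not computed, and the limit given for genes with no count covers counting error only. Sts was not analysed here, and 1 regulator of the planned list is not reported here.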

Additional observations from a re-analysis of the deposited data

How the results depend on the processing

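The quasi-likelihood test called 1 member higher, 0 lower and 74 genes in all. The exact test called 6 members higher and 570 genes, and DESeq2 6 and 487. With no filter on low counts 2 members were higher and 145 genes were called. With library size alone the median log2 fold change of the tested members was 0.32 in place of 0.14, where the median of all genes moved by 0.17, and the calls were 67 higher and 10 lower in place of 56 and 18. RLE normalization, filterByExpr and the FDR alone gave 1 member higher and 0 lower each, with 70 to 102 genes called. Leaving out each mouse gave 0 to 7 members higher, 0 to 4 lower, 0 to 948 genes and a median of 0.11 to 0.21. All 4 lower members and the 7 higher ones came without mouse 8637, and 0 genes were called without mouse 9055, 9056 or 9210. Leaving out a wildtype mouse leaves 1, which is assumed to vary like the others. The exact test without mouse 9121, chosen after seeing the data, called 5 members higher, 1 lower and 490 genes. The causes of these differences were not tested.

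Of the 25 tested members given mouse by mouse under the naming rule, 11 passed the FDR of 5% newly by the exact test and 11 by DESeq2, and 16 without mouse 8637, while Ugt1a10 lost it without mouse 9055, 9056 or 9210. The log2 fold change of Sult1b1 was -0.02 without mouse 9056 and 0.14 with all mice, and no other of the 25 changed direction. No paired analysis was possible because the labels give the mice no shared replicate numbers. At this depth 26 of the 63 members had too few counts to be tested. For the other 37 the precision is limited by 3 mice against 2, by the spread among the Fnip1 null mice, and by mouse 9121, whose sex chromosome genes differ from those of the other 4.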
